A study of Mus musculus with 29 samples.

Results

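The response of the lung methylome to ovalbumin (OVA) challenge was examined in the offspring of Sham dams, by setting the Sham-OVA libraries (n = 7) against the Sham libraries (n = 7). These 14 libraries were taken, by their group labels, from the 29 libraries of the series. All dams behind them had received intranasal saline before mating, through gestation and until weaning, so maternal particulate exposure does not enter the comparison. Sham-OVA offspring were sensitised with intraperitoneal OVA adsorbed to aluminium hydroxide and were then challenged with nebulised OVA, whereas Sham offspring inhaled nebulised saline (the labels call the vehicle PBS). All were BALB/c mice labelled as females of 13 weeks, and lungs were taken on the day after the last challenge, once lung function had been measured with inhaled methacholine. Enzymatic methyl-sequencing of the whole genome (WGMS) was run on DNA of the homogenised right lower lobe. Unmethylated cytosines are converted by enzymes and read as thymine, and each library therefore mixes every cell type of that lobe. The labels do not tie libraries to litters, so p-values measure the spread between these animals only.

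OVA is an egg protein that, given with alum and then inhaled, induces allergic airways disease (AAD), in which T helper cells release interleukin (IL)-4, IL-5 and IL-13 and eosinophils and lymphocytes enter the airways. Methylation of cytosines in CpG dinucleotides is usually low at CpG-rich gene starts and high elsewhere in a gene, and the stretches between, including enhancers, are often partly methylated and differ between cell types. Genes that define leucocytes, for example, are typically unmethylated around their regulatory elements in leucocytes and methylated there in epithelial, endothelial and stromal cells.

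The unit of measurement was a window of 100 CpG cytosines (both strands counted) that overlaps a gene, and its value is the mean percent methylation (%DNAm) of those cytosines. Members were the autosomal windows (chromosomes 1 to 19) with a value in all 14 libraries. They numbered 250394 of the 251181 autosomal windows and of the 260686 windows in the table, named 36012 genes, and had a median length of 4713.5 bp (213 to 320320 bp). Because each window holds about the same number of CpGs, a short window is one where CpGs are dense. Windows were called differentially methylated regions (DMRs) where the group means lay at least 10 percentage points apart and the adjusted p was under 0.05 (limma, Benjamini-Hochberg over all 250394 windows).

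Sequence is shown for windows that gained or lost most methylation because these windows differed in CpG density. Shown are 4 of the windows with the largest rises and 4 with the largest falls, each represented by the 200 bases with the most CpGs among stretches of its window that hold no feature annotated as UTR in GENCODE M21 (introns and non-coding genes are not excluded), read from the plus strand of GRCm38, with every CG dinucleotide in capitals. Those that rose were
Agap2, chr10:127079868-127080067: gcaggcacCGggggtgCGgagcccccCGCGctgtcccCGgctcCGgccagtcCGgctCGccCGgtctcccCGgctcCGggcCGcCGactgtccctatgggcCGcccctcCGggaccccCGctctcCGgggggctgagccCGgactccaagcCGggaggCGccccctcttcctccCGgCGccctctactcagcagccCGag
Gm28308, chr6:52202543-52202742: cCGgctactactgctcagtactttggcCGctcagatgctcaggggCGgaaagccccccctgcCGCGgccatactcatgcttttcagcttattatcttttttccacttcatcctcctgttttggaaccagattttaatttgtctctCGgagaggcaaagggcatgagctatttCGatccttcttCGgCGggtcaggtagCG
Gfi1, chr5:107721519-107721718: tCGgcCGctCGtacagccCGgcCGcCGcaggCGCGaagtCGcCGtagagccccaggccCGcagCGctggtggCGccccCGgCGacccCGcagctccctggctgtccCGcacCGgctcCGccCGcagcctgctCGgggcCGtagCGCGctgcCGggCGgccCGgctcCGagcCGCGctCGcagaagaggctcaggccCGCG
Snx20, chr8:88627565-88627764: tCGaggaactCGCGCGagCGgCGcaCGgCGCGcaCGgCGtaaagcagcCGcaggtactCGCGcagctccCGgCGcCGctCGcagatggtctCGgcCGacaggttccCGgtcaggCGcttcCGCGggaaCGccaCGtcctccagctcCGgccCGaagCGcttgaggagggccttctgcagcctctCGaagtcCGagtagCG

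Those that fell were
Cytip, chr2:58159753-58159952: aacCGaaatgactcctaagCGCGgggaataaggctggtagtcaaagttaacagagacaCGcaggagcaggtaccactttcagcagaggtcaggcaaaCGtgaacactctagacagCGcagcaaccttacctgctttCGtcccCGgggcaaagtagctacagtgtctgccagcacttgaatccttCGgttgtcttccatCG
Bin2, chr15:100669313-100669512: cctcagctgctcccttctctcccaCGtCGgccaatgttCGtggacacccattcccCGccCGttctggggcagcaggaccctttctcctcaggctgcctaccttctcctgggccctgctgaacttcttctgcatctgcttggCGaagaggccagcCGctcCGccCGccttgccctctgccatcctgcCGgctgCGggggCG
Rhoh, chr5:65863494-65863693: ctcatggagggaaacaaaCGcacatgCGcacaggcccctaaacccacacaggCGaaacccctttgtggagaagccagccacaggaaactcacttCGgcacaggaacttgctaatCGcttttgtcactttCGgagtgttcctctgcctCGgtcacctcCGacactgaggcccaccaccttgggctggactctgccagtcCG
Mir142hg, chr11:87756937-87757136: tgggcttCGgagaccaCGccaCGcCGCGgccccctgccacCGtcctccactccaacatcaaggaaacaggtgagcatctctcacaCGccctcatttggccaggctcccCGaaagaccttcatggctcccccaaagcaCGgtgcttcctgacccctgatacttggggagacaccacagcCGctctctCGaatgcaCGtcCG

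The Gfi1 and Snx20 stretches held 33 and 32 CpGs and the Agap2 stretch 23, whereas the 4 stretches from windows that fell held 9 to 13. The Gm28308 stretch, from the Hoxa cluster, held 10 and was no denser than those. Over their whole windows CpG content was 9.01 per 100 bp in Agap2, 13.1 in Gfi1 and 13.6 in Snx20 but 2.92 in Gm28308, against 1.19 in Cytip, 1.31 in Rhoh, 2.04 in Bin2 and 2.78 in Mir142hg. The same contrast held over all DMRs, since median CpG content was 1.77 per 100 bp in those that rose, 1.39 in those that fell and 1.07 in all tested windows.

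Several DMRs held a microRNA gene, and the mature forms that recur below are shown with the seed (bases 2 to 8, by which a microRNA pairs with its targets) in capitals, as given by RefSeq. The first 3 lie in windows that fell and the others in windows that rose, and no 2 of them share a seed.
mmu-miR-142a-3p: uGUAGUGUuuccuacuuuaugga
mmu-miR-21a-5p: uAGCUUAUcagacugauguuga
mmu-miR-155-5p: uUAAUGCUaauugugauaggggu
mmu-miR-126a-3p: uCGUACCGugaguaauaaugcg
mmu-miR-10b-5p: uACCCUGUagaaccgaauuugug
mmu-miR-128-3p: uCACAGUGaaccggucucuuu
mmu-miR-30a-5p: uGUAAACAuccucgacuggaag

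The libraries of a group were alike, with Pearson's r across windows of 0.993 to 0.997 within a group (42 pairs) and 0.985 to 0.994 between the groups (49 pairs), and 0 pairs were identical. Sham replicate 1 went against its female label, with a value in 1224 of 1230 windows of the Y chromosome against 29 to 46 in every other library of the series, and with 5.95% of its X chromosome windows at a level under 10%, a share that was 0.365 to 0.488% in the remaining Sham libraries. It was kept in its group, and only autosomes were tested. Without it there were 1926 DMRs (1163 higher and 763 lower), against 1974 (1218 and 756) with it. The table holds no read counts, so sequencing depth is unknown here and precision rests on the 7 libraries of each group. Windows at the starts of lung marker genes had 72.1% (Sftpc), 72.0% (Scgb1a1), 73.5% (Sftpa1), 55.5% (Sftpb) and 4.95% (Cldn5) in Sham, and those of genes of other tissues 74.4% (Alb) and 66.4% (Rbfox3). The levels interleave, so these windows do not by themselves identify the tissue.

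OVA challenge shifted many windows by a small amount and few by a large one. At an adjusted p under 0.05 with no minimum difference, 80601 windows differed (32.2%), of which 31306 were higher (12.5%) and 49295 lower (19.7%) in Sham-OVA. The minimum of 10 points left 1974 DMRs (0.788%), made up of 1218 gains (0.486%) and 756 losses (0.302%). Gains were 61.7% of DMRs although 41.5% of all windows had a difference above 0, and the median difference was -0.379 points. With libraries centred there were 1400 gains and 666 losses, but at an adjusted p under 0.000001 losses led (5 gains and 11 losses). Most windows (64.1%) lay within 2 points of 0. In bulk lung DNA, a changed share of a cell type and a changed methylation level within cells cannot be told apart, here and in all results that follow.

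The DMRs fell in 1336 genes, of which 740 held gains only, 528 losses only and 68 both, and 983 held a single DMR. Gains and losses were of like size, with a median rise of 11.9 points and a median difference of -12.1 points in those that fell, but 54 gains and 13 losses reached 20 points. The 7 libraries of each group did not overlap in 1035 of the 1218 windows that rose and in 714 of the 756 that fell, whereas over all windows groups lay apart in 8.78% (3.25% higher and 5.53% lower in Sham-OVA). DMRs that rose started from a median of 47.0 %DNAm in Sham and reached 59.9% in Sham-OVA, and those that fell went from 68.9 to 55.8%. These levels describe windows chosen by this contrast.

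The largest gain was in Agap2 (chr10:127079868-127080411), which encodes an Arf GTPase-activating protein with a GTPase domain. This exonic window of 544 bp had 10.1 to 17.3 %DNAm in Sham (median 14.4) and 34.5 to 61.5% in Sham-OVA (median 46.8). The groups lay well apart, and the means of 13.9% ± 2.78 and 47.9% ± 8.50 (SD, n = 7 each) differed by 34.0 points (adjusted p = 1.72e-06). Next came a window labelled Gm28308 (chr6:52201945-52203659) that overlaps the homeobox genes Hoxa3 and Hoxa5, regulators of positional identity. It had 16.6 to 23.9% in Sham (median 19.9) and 40.6 to 59.2% in Sham-OVA (median 52.5), with no overlap and a difference of 29.6 points (adjusted p = 1.75e-06).

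Gfi1 (chr5:107721362-107721744) encodes a zinc finger repressor of myeloid and lymphoid differentiation, and its 383 bp window, 369 bp of it exonic, had 7.75 to 24.4% in Sham (median 14.8) and 29.7 to 56.9% in Sham-OVA (median 42.5). The 2 groups did not overlap and the difference was 27.5 points (adjusted p = 7.28e-05). Snx20 (chr8:88627554-88627913), whose product is a sorting nexin that binds the leucocyte adhesion ligand PSGL-1, had 8.91 to 18.2% (median 15.1) and 26.9 to 54.0% (median 41.6), again without overlap (27.3 points, adjusted p = 2.40e-05). Carmil2 (chr8:105693829-105694357), which encodes an actin regulator needed for T cell costimulation, had 4.98 to 25.3% (median 15.4) and 34.2 to 50.4% (median 40.4), a difference of 27.0 points (adjusted p = 6.69e-05). Carmil2 stood in the T cell list under its older symbol Rltpr, which the table does not use, so it is not counted there.

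A 976 bp window of Fmnl1 (chr11:103192627-103193602), a formin of leucocytes, rose from 23.0% ± 8.67 to 49.9% ± 8.11 (26.9 points, adjusted p = 0.000234). An intronic window of Rnf220, a ubiquitin ligase, rose from 28.3% ± 6.63 to 54.1% ± 5.59 (25.8 points, adjusted p = 2.33e-05). The window with the smallest p of the 12 largest gains was at the start of Gm38708 (chr6:88190625-88192979), a predicted gene that lies near Gata2. It had 25.1 to 29.8% in Sham (median 28.7) and 48.4 to 58.8% in Sham-OVA (median 51.7), so it rose by 24.7 points with narrow groups (adjusted p = 2.64e-07). A window named Galnt2l (chr8:122336032-122336377) but overlapping Zfpm1, a cofactor of Gata factors, rose from 40.2% ± 5.99 to 65.2% ± 7.44, and one in 2700081O15Rik from 29.8% ± 3.77 to 54.9% ± 6.68. The last of the 12, Zfp36l1 and Efcab15, rose by 24.4 and 24.2 points, but their groups overlapped. In Zfp36l1, which encodes an RNA-binding protein that destabilises messages, Sham reached 30.5% and Sham-OVA began at 29.6%.

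**Figure D1:**
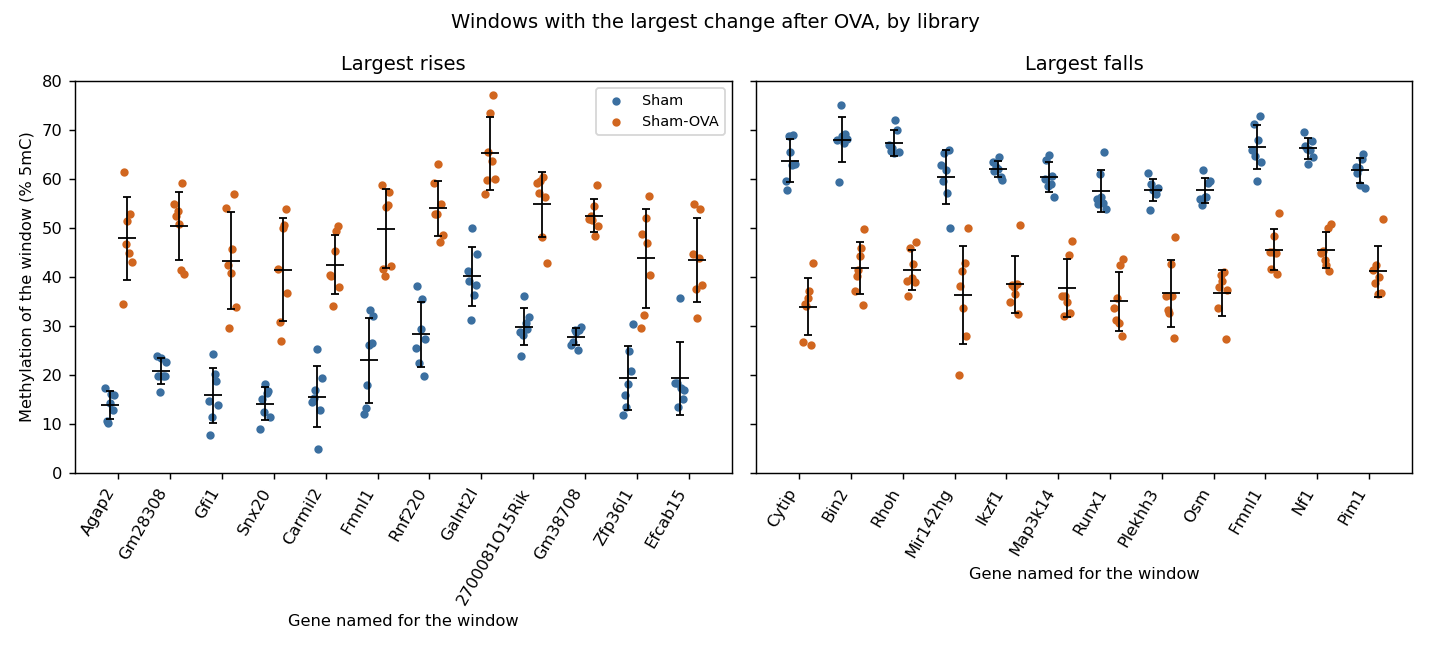
%DNAm (y axis, percent) of single libraries in windows with the largest gains and the largest losses, with each point 1 library of Sham or Sham-OVA and the bars the mean ± SD of 7. Sham libraries of the Agap2 window lie between 10.1 and 17.3% and Sham-OVA libraries between 34.5 and 61.5%, while in Cytip the order is turned round (57.7 to 68.9% against 26.2 to 42.9%).

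The largest loss was in Cytip (chr2:58156260-58160444), which encodes cytohesin-interacting protein, which loosens leucocyte adhesion. Its window had 57.7 to 68.9 %DNAm in Sham (median 63.1) and 26.2 to 42.9% in Sham-OVA (median 34.6). No libraries of the groups overlapped, and the means of 63.8% ± 4.31 and 33.9% ± 5.85 (SD, n = 7 each) differed by -29.8 points (adjusted p = 2.82e-06). Bin2 (chr15:100667744-100670140), encoding a membrane-bending protein of leucocytes, had 59.4 to 75.1% (median 68.2) and 34.3 to 49.9% (median 41.4) across its gene start, a difference of -26.2 points (adjusted p = 4.31e-06). Rhoh (chr5:65863076-65866824), a gene of haematopoietic cells, had 65.3 to 72.0% (median 66.4) and 36.2 to 47.1% (median 39.9) in a wholly exonic window, and differed by -26.0 points (adjusted p = 7.49e-07).

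Mir142hg (chr11:87755394-87757156), the host transcript of the leucocyte microRNA miR-142, had 49.9 to 65.9% in Sham (median 61.9) and 19.9 to 50.002% in Sham-OVA (median 38.2). Its groups just overlapped, and the difference was -24.1 points (adjusted p = 0.000325). Ikzf1, the lymphoid transcription factor Ikaros, fell from 62.0% ± 1.65 to 38.5% ± 5.76 in an intronic window (adjusted p = 3.02e-06), where Sham-OVA replicate 7 stood at 50.6% and the other 6 between 32.4 and 38.6%. Map3k14, the kinase of non-canonical NF-kappaB signalling, fell from 60.5% ± 3.02 to 37.7% ± 5.91 (adjusted p = 6.96e-06). At a start of Runx1 (chr16:92824497-92826928), a master regulator of blood formation, the fall was from 57.5% ± 4.27 to 35.0% ± 5.99 (adjusted p = 1.72e-05). Losses of 20.6 to 21.1 points followed in Plekhh3, in the start of Osm (oncostatin M, a cytokine of leucocytes), in Fmnl1, in an Nf1 window that overlaps Evi2a, and in Pim1 (a cytokine-induced survival kinase). Of the 12 largest losses, the one in Mir142hg alone left the groups overlapping.

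Gains and losses were spread differently over the kinds of window, although the shares of both were highest at 30 to under 60% in Sham. Over all windows the shares were 0.486% and 0.302%. By length, windows under 1000 bp, where CpGs are densest, had 117 gains and 8 losses among 14896 (0.785% and 0.0537%). Those of 1000 to under 2500 bp had 366 gains and 96 losses among 21461 (1.71% and 0.447%). Gains and losses were nearer in number at 2500 to under 5000 bp (640 and 525 of 100118, or 0.639% and 0.524%). Losses led at 5000 to under 10000 bp (90 and 122 of 92501, or 0.0973% and 0.132%), and windows of 10000 bp or more had 5 of each among 21418. By the mean of the Sham libraries, gains were 9 of 17841 windows under 10% and 180 of 7870 at 10 to under 30%, where losses were 0 and 4. At 30 to under 60% there were 873 gains and 176 losses among 22204 windows (3.93% and 0.793%). At 60 to under 80% losses led (156 gains and 473 losses of 105484, or 0.148% and 0.448%), and at 80% or more there were 103 losses (0.106%) and 0 gains among 96995. A window already at 90% cannot gain 10 points, and a window under 10% cannot lose them, so the ends of this order follow in part from the definition of a DMR.

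Length and level together marked out where gains were most frequent. In windows under 1000 bp with a Sham level of 30 to under 60%, 49 of 201 were DMRs that rose (24.4%), and at 60 to under 80% 15 of 81 (18.5%). At 10 to under 30% the count was 49 of 427 (11.5%), and among windows of 1000 to under 2500 bp at 30 to under 60% it was 248 of 3283 (7.55%), all against 0.486% of all windows. CpG-dense windows are usually unmethylated, and those with an intermediate level are the exception.

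**Figure D2:**
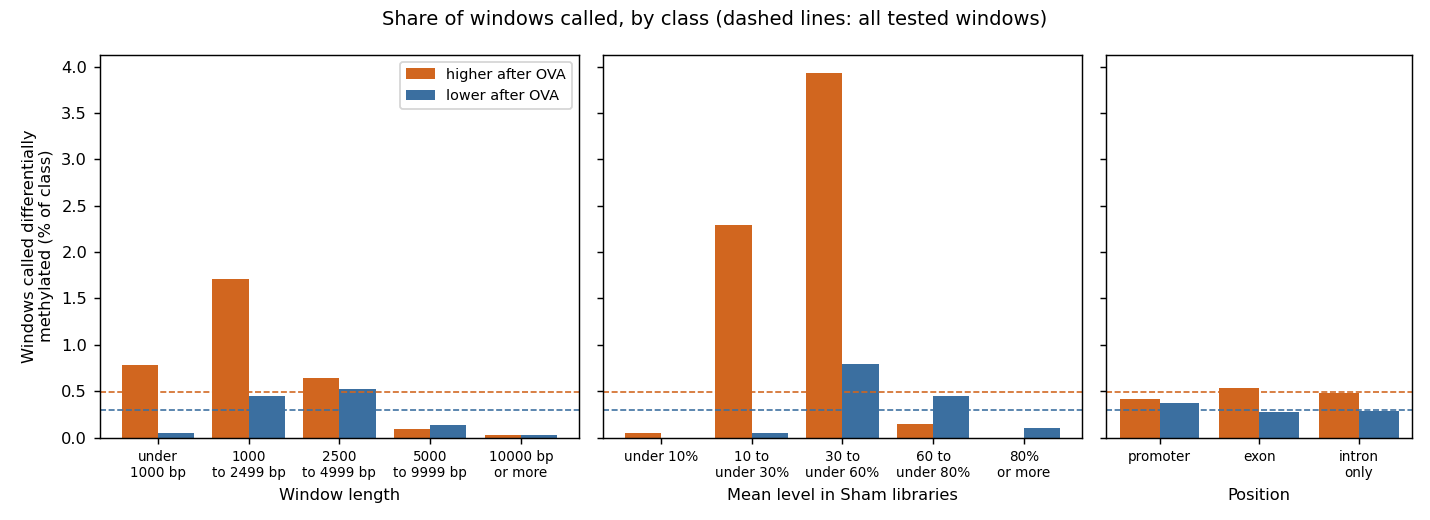
Share of tested windows that were DMRs (y axis, percent) in each class of window length, Sham level and position (x axis), with gains and losses as separate bars. Gains reach 3.93% of windows at 30 to under 60 %DNAm and 1.71% at 1000 to under 2500 bp, and losses are highest at 30 to under 60% (0.793%) and at 2500 to under 5000 bp (0.524%).

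The mean of each window class gives 1 value per library and needs no minimum difference. Over all windows it was 69.0% ± 0.366 in Sham and 68.7% ± 0.597 in Sham-OVA (SD, n = 7 each), a difference of -0.300 points within the spread (exact permutation test, 2-sided, p adjusted over 14 classes = 0.357). This difference was -0.619 with medians over windows and -0.425 to -0.140 without 1 library. Windows under 1000 bp rose from 4.12% ± 0.116 to 4.60% ± 0.0659, a difference of 0.485 points with all 7 Sham-OVA libraries above the Sham mean (exact permutation, adjusted p = 0.00272). Windows of 1000 to under 2500 bp differed by 0.751 points (exact permutation, adjusted p = 0.00653), those of 2500 to under 5000 bp by 0.0835 (0.760, but 0.383 points, adjusted p = 0.000842, after subtraction of each library's mean over all windows, and -0.00843 with medians), those of 5000 to under 10000 bp by -0.793 (0.0439) and those of 10000 bp or more by -1.56 (0.00612). Subtraction of the library mean also gave 0.785 points under 1000 bp and -0.493 at 5000 to under 10000 bp. Medians over windows in place of means gave 0.116 points under 1000 bp and 2.19 at 1000 to under 2500 bp, so the size of these differences depended on the summary. The call for 5000 to under 10000 bp was lost in 10 of the 14 fits that left out 1 library, with differences of -0.938 to -0.614 over all 14.

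By Sham level, mean differences were 0.389 points under 10% (exact permutation, adjusted p = 0.00272), 0.976 at 10 to under 30% (0.00272), 1.23 at 30 to under 60% (0.00680), -0.242 at 60 to under 80% (0.549) and -0.945 at 80% or more (0.0105). Subtraction of the library mean turned the value at 60 to under 80% to 0.0583 points and gave 0.689 under 10%, and medians gave 0.184 points under 10%. The Sham libraries both sort the windows here and enter the difference, which can by itself draw low windows up and high windows down. Sorted instead by the level in the PM libraries (offspring of particulate-exposed dams without OVA, which enter no difference here), the corresponding differences were 0.375, 0.939, 1.15, -0.249 and -0.881 points. All of these values shared the direction of those from the Sham sort.

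**Figure D3:**
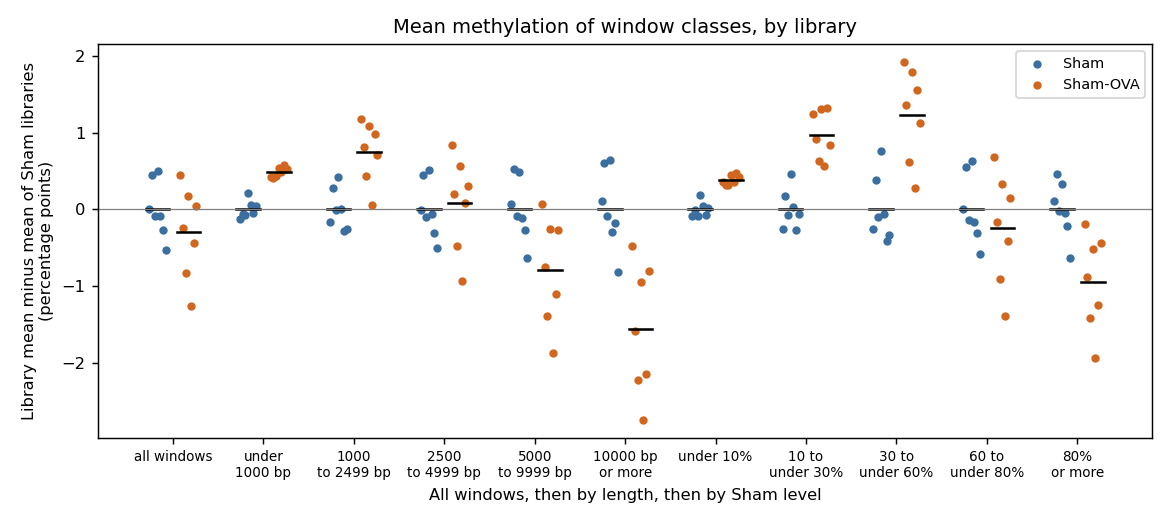
Mean %DNAm of each library minus the mean of the Sham libraries (percentage points), for all windows and for each class by length and Sham level. Each point is 1 library of Sham or Sham-OVA, and bars are group means. The Sham-OVA bars run from -1.56 in windows of 10000 bp or more to 1.23 in windows at 30 to under 60% in Sham.

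Windows that overlap a promoter (2000 bp before a gene start) differed by -0.327 points (exact permutation, adjusted p = 0.262), exonic windows outside promoters by -0.114 (0.722) and windows with intron only by -0.510 (0.177). Medians over windows gave -0.547, -0.426 and -0.751 points. Without 1 library the promoter difference was -0.434 to -0.193 and the intronic -0.651 to -0.330. After each library's mean over all windows was subtracted, exonic windows differed by 0.186 points and intronic windows by -0.210 (exact permutation, adjusted p = 0.000842 for both), and promoter windows differed by -0.0267 (0.491). Promoters made up 19.3% of gains and 27.9% of losses against 22.8% of all windows, and exonic windows 46.7% of gains and 39.4% of losses against 42.6%. Windows that hold an annotated gene start were 6.16% of gains and 14.9% of losses, against 12.6% of all windows. Short promoter windows (under 1000 bp, the usual CpG islands) had 36 gains and 0 losses among 7735, and this share of gains (0.465%) was near that of all windows (0.486%).

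DMRs that rose also held fewer repeats (a median of 13.9% of their bases, against 18.2% in those that fell and 22.3% overall) and more often lay in protein-coding genes (92.9%, against 87.3% and 82.4%). Long intergenic non-coding RNA genes had 31 gains and 47 losses among 19391 windows (0.160% and 0.242%), both below the shares of all windows (0.486% and 0.302%). The share of windows called ranged from 0.472% on chromosome 3 to 1.16% on chromosome 11. DMRs varied more between libraries than other windows, with a median SD in Sham-OVA of 3.49 points in gains and 3.24 in losses against 1.52 overall.

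The list of genes of leucocyte signalling and cytoskeleton that most blood cells share (38 genes, 33 with windows) had 47 losses and 9 gains among 531 windows, so 8.85% of its windows fell against 0.302% of all, and 26 of its genes held a loss. The list was chosen with results of these data known and holds 5 of the 12 largest losses, so its share is in part set by that choice. Of the 27 windows of the list that hold a start, 14 were DMRs that fell (51.9%) and 0 rose, whereas 0.358% of all 31564 windows with a start fell. Mean %DNAm over these 27 windows was 51.4 to 55.0 in the Sham libraries (median 53.5) and 41.8 to 47.8 in the Sham-OVA libraries (median 44.6), without overlap. Further than 5000 bp after the start, losses still outnumbered gains (22 DMRs lower and 8 higher of 472 windows, or 4.66% and 1.69%), and the largest losses of Cytip, Wipf1 and Lcp1 lay there. The start used is the outer end of a gene's annotation, so other starts of the same gene can lie in this stretch. In the same stretch 66.9% of the 472 windows had a difference above 0, with a median of 1.96 points, against 40.1% and -0.515 points for all windows so placed. The median over the whole list was accordingly 1.51 points while its mean was -0.0846.

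Named members of that list show the range. Ptprc, the leucocyte common antigen CD45, had 67.4 to 71% in Sham (median 69.5) and 46.1 to 56.8% in Sham-OVA (median 49.6) in a window of chr1:138168721-138175449, and fell by 19.1 points (adjusted p = 8.87e-07). Wipf1, a partner of the Wiskott-Aldrich syndrome protein in actin assembly, fell from 81.3% ± 2.55 to 61.8% ± 4.72 in an intronic window. Lcp1, the leucocyte actin bundler L-plastin, held 5 losses in 22 windows, and its largest went from 74.0% ± 1.98 to 55.9% ± 3.78 (adjusted p = 1.99e-06). At the start of Arhgap15, a Rac GTPase-activating protein, the libraries had 66.5 to 75.8% and 48.2 to 65.5%, with a difference of -17.5 points (adjusted p = 3.32e-05). Start windows that were DMRs also differed by -18.5 points in Laptm5, -17.3 in Fermt3, -15.3 in Myo1g, -15.0 in Dock2, -13.5 in Itgal, -12.2 in Rac2 and -11.7 in Coro1a. The gains of the list were 5 in Runx3, 2 in Arhgap9 and 1 each in Dock2 and Arhgap15, and the Arhgap9 window rose from 29.2% ± 5.72 to 52.2% ± 6.65 (adjusted p = 5.00e-05).

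B cell genes (333 windows) had 12 losses and 3 gains (3.60% and 0.901%, against 0.302% and 0.486% of all), and 6 of their 20 start windows were losses, against 0.358% of all start windows. Blk, a Src family kinase of B cells, had 77.2 to 82.7% in Sham and 62.4 to 72.9% in Sham-OVA at its start, and the groups were apart (-13.1 points, adjusted p = 6.87e-06). Cd79b, part of the B cell receptor, had losses in both of its windows. Bach2, a repressor that restrains plasma cell differentiation, held 3 losses and 1 gain in 85 windows, with its largest loss going from 85.6% ± 1.33 to 69.1% ± 4.22 (adjusted p = 2.09e-06), and Blnk, an adaptor of that receptor, fell by 13.8 points. T cell genes had 2 losses in 322 windows (0.621%), in the start windows of Lat (66% ± 3.09 to 51.5% ± 1.93) and Cd2 (75.7% ± 1.78 to 64.2% ± 3.83). T cell receptor segments (129 windows, by a name pattern corrected after values were seen) and immunoglobulin segments (282 windows) held 0 DMRs, where 0.788% of all windows were DMRs. Their median lengths were 8946 and 11955.5 bp, and all windows of 10000 bp or more had only 5 gains and 5 losses among 21418. Their windows with the smallest p were Trav13d-4, with a difference of -8.56 points, and Ighm, with -9.12. Both were at an adjusted p under 0.05 but short of 10 points.

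Eosinophil genes had 5 losses and 0 gains in 87 windows (5.75% lower, against 0.302% of all), 2 of them in Csf2rb. That gene encodes the beta chain shared by the receptors of IL-3, IL-5 and GM-CSF, and at its start it had 62.7 to 71.4% in Sham and 49.9 to 59.4% in Sham-OVA (-12.6 points, adjusted p = 4.20e-05). Il5ra, the IL-5 receptor of eosinophils, had 54.9 to 60.9% and 44.6 to 54.0% at its start, also apart (-10.7 points, adjusted p = 6.23e-05). Epx, eosinophil peroxidase, had 77.7 to 83.5% and 65.8 to 73.6% (-10.3 points, adjusted p = 2.61e-05). The call for Epx rested on the 10 point limit, since its difference was -9.94 points when libraries were centred, -9.74 without Sham replicate 1 and -9.75, -9.98 and -9.68 without Sham-OVA replicates 2, 4 and 6. The remaining loss was in Cd24a, with a difference of -10.0006 points, at that limit too. Prg2, Prg3, Siglecf, Ccr3, Ear6 and Ear10 held 0 DMRs. With centring the list had 3 losses. Over the 19 start windows of the list, mean %DNAm was 62.2 to 63.4 in Sham (median 62.9) and 58.0 to 61.6 in Sham-OVA (median 58.3).

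Myeloid genes had 3 losses and 1 gain in 200 windows (1.5% and 0.500%, against 0.302% and 0.486% of all). The losses were in Spi1 (the myeloid factor PU.1, 67.7% ± 3.07 to 51.9% ± 3.68), Tyrobp (the adaptor DAP12, 59.1% ± 2.18 to 45.0% ± 2.08) and Mpo (myeloperoxidase, 64.3% ± 1.61 to 52.5% ± 3.48). The gain was in another window of Spi1, at 13.9 points. Mast cell and basophil genes had 2 gains and 0 losses in 125 windows. At an adjusted p under 0.05 alone 31 of these windows were lower and 22 higher, where 19.7% of all windows were lower and 12.5% higher. A difference below 0 was found in 11 of their 16 start windows, and 39.2% of all start windows had one above 0. Kit, the stem cell factor receptor, rose from 58.3% ± 1.61 to 69.3% ± 3.49, and Gata2, a factor of mast cells and progenitors, from 36.5% ± 3.58 to 51.4% ± 3.95. Both lists are short, and 1.60% of windows gained in the latter against 0.486% of all.

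The list of type 2 cytokine and receptor genes had 2 losses (Il5ra and Rad50) and 1 gain (Ptgdr2) in 111 windows (1.80% and 0.901%, against 0.302% and 0.486% of all). The Rad50 window lies in the gene that carries the locus control region of the neighbouring Il4, Il5 and Il13 genes, and it fell from 86.5% ± 1.28 to 75.9% ± 2.86 (adjusted p = 6.42e-06), with Sham-OVA replicate 7 highest at 81.9%. Ptgdr2, the prostaglandin D receptor CRTH2 of type 2 lymphocytes and eosinophils, had 16.5 to 25% in Sham and 25.6 to 41.4% in Sham-OVA in an exonic window, so the groups only just parted (14.6 points, adjusted p = 8.12e-05). The start windows of Il4 and Il13 differed by -5.22 and -4.33 points, at adjusted p of 0.00364 and 0.00108, and were not DMRs. Among the transcription factors of this response, Gfi1 had 3 gains, whereas Stat5b (72.1% ± 2.09 to 61.3% ± 1.95) and Batf (81.3% ± 1.58 to 70.3% ± 2.66) had a loss each in 420 windows, shares of 0.714% higher and 0.476% lower that were close to those of all windows. The start window of Gata3, the defining factor of these cells, had means of 5.97% in Sham and 7.10% in Sham-OVA (adjusted p = 0.0910).

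Endothelial genes had 16 gains in 10 genes and 3 losses in 420 windows, so that 3.81% rose against 0.486% of all. All 16 gains were among the 95 windows at 30 to under 60% in Sham. Eng and Calcrl held 3 gains each and Egfl7 and Acvrl1 2 each. Egfl7, a secreted factor of blood vessels that hosts miR-126, had 46.6 to 55.0% in Sham (median 52.6) and 56.3 to 72.5% in Sham-OVA (median 67.8), a rise of 14.2 points with the groups apart (adjusted p = 0.000400). Of the 3 losses, that of Pecam1, the adhesion molecule CD31, was at its start in a window that also overlaps Milr1, and went from 53.8 to 61.4% in Sham (median 58.4) to 36.3 to 47.8% in Sham-OVA (median 38.9), a difference of -18.0 points (adjusted p = 5.88e-06). Fli1, an Ets factor, had the other 2, and the larger went from 74.2% ± 2.27 to 60.2% ± 3.46.

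Alveolar epithelial genes had 3 gains and 1 loss in 210 windows (1.43% and 0.476%, against 0.486% and 0.302% of all). Hopx, a marker of alveolar type 1 cells, rose at its start from 44.8% ± 1.20 to 58.0% ± 3.92 (adjusted p = 1.62e-05), Clic5, which endothelial cells also express, from 45.3% ± 2.49 to 57.4% ± 5.31, and Etv5, a factor of type 2 cells, from 63.3% ± 2.61 to 75.1% ± 2.11. The loss was in Rtkn2, also known from type 1 cells, with a difference of -10.7 points. The median difference over the list was 1.21 points, and 66 of the 210 windows rose and 9 fell at an adjusted p under 0.05 alone, where 12.5% of all windows rose and 19.7% fell. Airway epithelial and goblet cell genes had 1 gain in 197 windows (0.508%, near the 0.486% of all). It was in the start of Krt8, a keratin of simple epithelia (45.6% ± 1.88 to 56.5% ± 1.75). Smooth muscle, fibroblast and pericyte genes had 1 gain in 459 windows (0.218%, below the 0.486% of all). It was in Mylk, the myosin light chain kinase (53.6% ± 1.81 to 63.6% ± 2.51), just past the 10 point limit. That call was lost in 7 of 14 fits that left out 1 library, with differences of 9.40 to 9.98 points in Mylk. Genes of the methylation machinery had 1 gain in 228 windows (0.439%, near the share of all), in an intron of the de novo methyltransferase Dnmt3a (35.5% ± 2.13 to 46.2% ± 3.48). Cell cycle genes had 1 loss and 1 gain in 158 windows (0.633% each, against 0.302% and 0.486% of all). The loss was in Mki67, the proliferation marker Ki-67 (49.9% ± 0.902 to 39.1% ± 1.28). The gain was in Cdc6, a licensing factor of DNA replication (38.2% ± 2.18 to 48.9% ± 4.70). The Cdc6 call was lost without Sham-OVA replicate 3 (9.97 points) and replicate 6 (9.78).

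**Figure D4:**
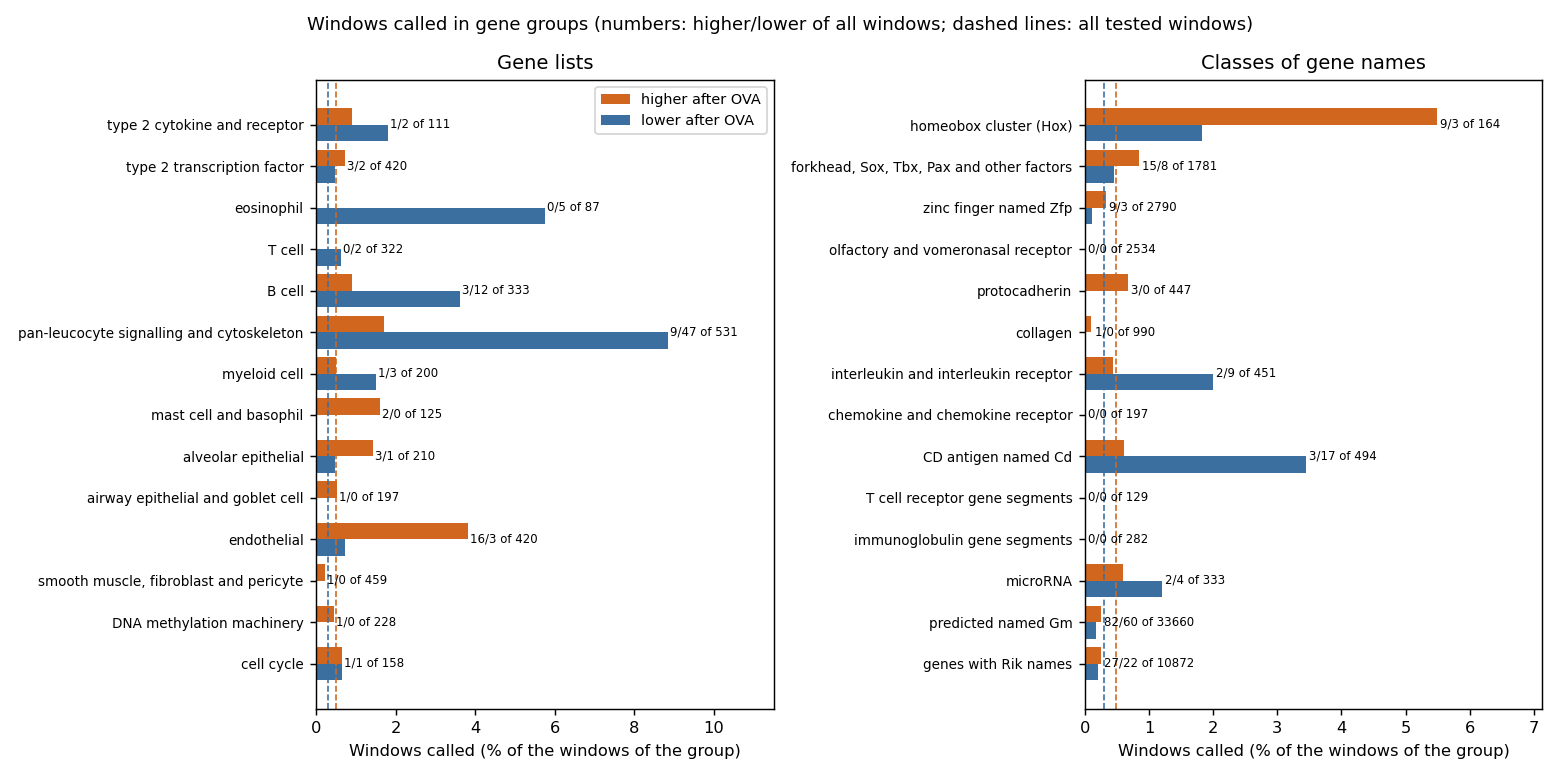
Share of windows that were DMRs (percent, gains and losses apart) in each gene list, beside the share over all tested windows. The list of pan-leucocyte genes reaches 8.85% of windows lower, eosinophil genes 5.75% and B cell genes 3.60%, while endothelial genes reach 3.81% higher.

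Among classes defined by gene name, genes named Cd had 17 losses in 15 genes and 3 gains among 494 windows (3.44% and 0.607%, against 0.302% and 0.486% of all), including the start windows of Cd200r1, an inhibitory receptor of myeloid cells (65.7% ± 2.81 to 45.9% ± 4.95), and of Cd52 (70.7% ± 2.60 to 54.5% ± 4.36), and a window of the costimulator Cd80 (74.6% ± 1.59 to 60.1% ± 3.79). Interleukin and interleukin receptor genes had 9 losses and 2 gains among 451 windows (2.00% and 0.443%), with Il17ra (72.8% ± 1.89 to 55.8% ± 2.63) and Il12a (47.9% ± 2.49 to 32.5% ± 1.79) lower and Il12rb1 (44.5% ± 2.90 to 59.1% ± 5.54) higher. Hox genes had 9 gains and 3 losses among 164 windows (5.49% and 1.83%). Hoxa2 rose at its start from a median of 11.3% to 27.5%, with Sham replicate 5 at 18.2% above the other Sham libraries, Hoxb3 from 32.2% ± 3.73 to 46.8% ± 4.47, and Hoxd3 from 27.7% ± 2.91 to 41.7% ± 3.92.

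Olfactory and vomeronasal receptor genes had 0 DMRs in 2534 windows, with a median difference of -1.28 points. Their median length was 11416.5 bp. All tested windows of 10000 bp or more had 5 gains and 5 losses among 21418 (0.0233% each) and a median difference of -1.60 points. At an adjusted p under 0.05 alone, 398 of the 2534 were lower and 17 higher, where 19.7% of all windows were lower and 12.5% higher. The smallest p was in Olfr647-ps1 (-7.53 points). Chemokine and chemokine receptor genes had 0 DMRs in 197 windows, where 0.788% of all windows were DMRs. The smallest p was that of Ccl3 (70.4% ± 0.854 to 62.6% ± 2.28). Collagen genes, whose name pattern was also corrected after values were seen, had 1 gain in 990 windows (0.101%, against 0.486% of all). It was in Col4a1 of basement membranes (59.3% ± 2.90 to 71.4% ± 3.16). Zinc finger genes named Zfp had 9 gains and 3 losses in 2790 windows (0.323% and 0.108%), predicted genes named Gm 82 and 60 in 33660 (0.244% and 0.178%), and genes with Rik names 27 and 22 in 10872 (0.248% and 0.202%). Forkhead, Sox, Tbx, Pax, Lhx, Nkx and Gata genes and their kin together had 15 gains and 8 losses in 1781 windows (0.842% and 0.449%, against 0.486% and 0.302% of all).

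DMRs clustered along the chromosome. Of the gains 356 (29.2%), and of the losses 159 (21.03%), were in runs. A run is a series of consecutive tested windows that are DMRs of the same direction with gaps of at most 5000 bp. The longest run held 12 gains over chr6:52164635-52191294, from Hoxa2 past Hoxa4, with Sham levels of 8.62 to 40.5% and rises of 14.8 to 24.7 points. A second run of 7 gains followed over chr6:52194332-52206942, and rises there were 15.9 to 29.6 points. The label Gm28308 as a whole had 18 gains and 0 losses in 25 windows. Among losses, the longest run was that of 5 DMRs in Lcp1 (chr14:75177448-75197174), with differences of -18.1 to -11.8 points.

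Some genes gained over much of their length. Epas1, which encodes a hypoxia-inducible factor of endothelial cells, had 12 gains and 0 losses in 28 windows, 26 of which had a difference above 0 (21 windows passed an adjusted p under 0.05), and its largest went from 46.2 to 54.0% in Sham (median 48.7) to 59.9 to 70.8% in Sham-OVA (median 64.9). The gains lay 6.9 to 61.2 kb after its start. Casz1, a zinc finger factor of vascular and cardiac development, had 11 in 63 windows, and Smad6, an inhibitor of BMP signalling, had 8 in 26, all 26 with a difference above 0 and 23 at an adjusted p under 0.05. Agap2 had 8 gains in 10 windows, with a median of 21.1 points over the 10. The losses were most numerous, after 9 in the long region labelled Galnt2l, in Fnbp1, a membrane-bending protein (6 of 36 windows), Lcp1 and Ubac2 (5 of 31).

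In 68 genes gains and losses stood side by side. Fmnl1 had 2 losses at 2.7 and 6.4 kb after its start and 3 gains at 22.0, 23.4 and 27.4 kb. Its largest loss went from 66.5% ± 4.58 to 45.6% ± 4.18 and its largest gain from 23.0% ± 8.67 to 49.9% ± 8.11. Runx1 had 3 losses and 6 gains in 66 windows. An exonic window 130.03 kb after its start (chr16:92695534-92696712) had 11.1 to 22.1% in Sham (median 14.3) and 27.1 to 42.0% in Sham-OVA (median 37.4), a rise of 20.05 points, against the fall of 22.5 points at the start given above. Arhgef18, a guanine nucleotide exchange factor, rose by 21 points in a window centred 1.08 kb after its start and differed by -15.3 points in one that overlaps A430078G23Rik, 39.2 kb before. In Arhgap15 the start fell, while of its 93 windows 55 were higher and 4 lower at an adjusted p under 0.05 alone, and 1 of the 55 was a DMR.

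**Figure D5:**
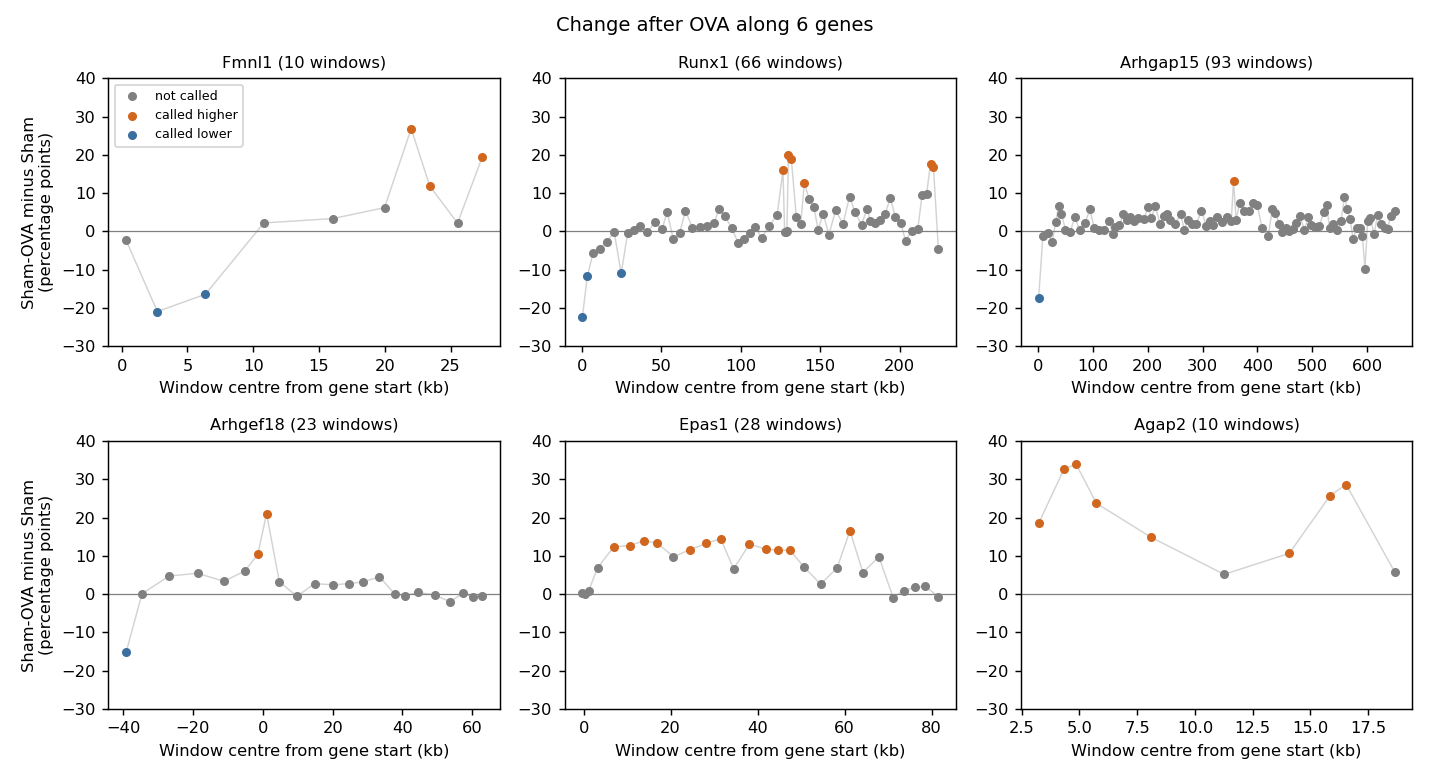
Difference in %DNAm (Sham-OVA minus Sham, percentage points) of every tested window of 6 genes against distance from the gene start (kb) in genes with many DMRs or with DMRs in both directions, with DMRs marked. In Fmnl1 and Runx1 the DMRs that fell lie nearer the start than those that rose, with 46 of the 66 Runx1 windows above 0, while the Epas1 and Agap2 DMRs all lie above 0.

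Of 878 microRNA genes of the RefSeq table that lay inside a tested window, 8 were in a DMR that rose (0.911%) and 5 in one that fell (0.569%), against 0.486% and 0.302% of all windows. These 13 genes lay in 11 windows, since Mir126a and Mir126b share one, as do Mir142 and Mir142b. They were found by position after the values were known. The losses held miR-142, of leucocytes, in the Mir142hg window given above, miR-21a, an abundant microRNA of inflamed tissue, and miR-155, which is induced in activated lymphocytes and macrophages. The window of Mir21a, at the end of Vmp1 (chr11:86581372-86585108), had 50.6 to 55.2% in Sham (median 53.8) and 30.5 to 42.7% in Sham-OVA (median 34.2), without overlap (-17.9 points, adjusted p = 3.52e-06). That of Mir155 (chr16:84713137-84717482) had 80.7 to 84.9% (median 81.7) and 66.3 to 78.1% (median 72.5), also apart (-10.2 points, adjusted p = 4.87e-05).

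The gains held miR-126a, an abundant endothelial microRNA, within the Egfl7 window, and miR-10b within the Hoxd3 window (23.7 to 32.6% against 34.3 to 44.7%). Mir128-2, in an intron of Arpp21, rose from 28.9% ± 2.76 to 42.8% ± 3.87 (adjusted p = 2.38e-05) and Mir30a from 39.5% ± 1.61 to 50.5% ± 2.51 (adjusted p = 9.98e-06). In both, no library of one group reached the other. The other windows were those of Mir7050 in Fxyd5 (lower), and of Mir1954 in Eng, Mir326 in Arrb1 and Mir6991 (higher).

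Short motifs of blood cell factors were counted on both strands in the central 300 bases of the 249619 windows that are at least as long, with no test. The Ets letters AGGAAGT were in 11.2% of windows that fell, 6.27% of those that rose and 7.12% of all. The Runx letters TGTGGTT were in 9.92%, 4.62% and 7.00%, and the AP-1 letters TGANTCA in 11.2%, 6.92% and 8.34%. The Gata letters AGATAAG were in 4.50%, 3.87% and 3.92%, the forkhead letters TGTTTAC in 3.70%, 4.62% and 4.16%, and the E box CANNTG in 82.0%, 78.2% and 79.4%. The windows that fell thus held the first 3 motifs more often than those that rose, although the sets also differed in CpG content and length, and a match is not a binding site.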

How the data were processed

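WGMS libraries of lung DNA were compared between Sham (n = 7) and Sham-OVA (n = 7). The authors added lambda DNA, trimmed reads (Trim Galore), used DRAGEN on GRCm38 to map them and call methylation, and averaged the calls over windows of 100 CpGs with SeqMonk. Each deposited value is thus a percent per window and library, without counts, coverage or any stated scaling between libraries, so no counting interval can be given. The study's count test could not be used on them.

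Percentages were transformed to log2((percent + 1)/(100 - percent + 1)) and compared with limma 3.58.1 in R 4.3.3 without covariates, 2-sided. Class means were compared with exact permutation over the 3432 splits of 14 libraries (smallest p 0.000583). The code was tested on simulated data and recovered 196 of 200 changed windows, with 1 unchanged window called. Replicate numbers did not pair the libraries (correlations of -0.0711 to 0.0435).

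Named windows were the 12 largest gains and losses (1 window per gene), the top 3 DMRs per list or name class (or the smallest p where there was none), genes with the most DMRs, genes with DMRs in both directions, and the extreme DMRs of each length and level class. Other names were chosen after their values were seen, and the name patterns for T cell receptor segments and collagen genes were corrected then because they matched other genes. Members and lists were chosen with earlier results of these data known. The 14 lists hold 391 genes, not all with a window. Gene features come from GENCODE M21. The start of a gene is the outer end of its annotation, and other starts of that gene can lie further along it. Python 3.11.15 and pysam 0.24.0 were used to read sequence. Alternatives were other offsets, scalings, filters, sample sets and thresholds, a replicate block and leaving out each library. Non-autosomal windows were left out of the tests. 1 gene name class is not reported here.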

Additional observations from a re-analysis of the deposited data

Results flagged for a closer look

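In 13 of the 224 groups of 7 libraries examined, 1 library stood far from the other 6 by Dixon's criterion, and chance alone gives about 1 in 20. Sham-OVA replicate 7 accounts for 5 of them, each time with the highest value of its group in a window that fell after OVA. It had 50.6% in Ikzf1 (others 32.4 to 38.6), 51.8% in Pim1 (36.5 to 42.5), 60.4% in Ubac2 (47.4 to 52.0), 81.9% in Rad50 (73.1 to 76.6) and 30.8% in Tbx3os1 (23.8 to 26.6). Over all DMRs that fell, this library had a mean of 58.8% against 51.2 to 54.7% in the other Sham-OVA libraries, and over those that rose it was the lowest (54.6% against 56.0 to 61.2%), which is a description of windows chosen by the same contrast. Without it there were 2379 DMRs.

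The other 8 were Sham libraries. Efcab15 had 35.7% in replicate 4 (others 13.5 to 18.3) and Gm49361 had 45.3% in the same library (38.4 to 41.3). Hoxa2 had 18.2% in replicate 5 (8.31 to 11.7), Foxd2os 40.7% in replicate 3 (45.0 to 47.7) and Fli1 78.8% in replicate 3 (72.0 to 74.4). Mpo had 61.0% in replicate 2 (64.3 to 66.3), Ccl3 72.2% in replicate 6 (69.6 to 70.5) and Ighm 55.5% in replicate 7 (59.5 to 61.2).

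Outside the windows tested, Sham replicate 1 had a value in 1224 windows of the Y chromosome, against 29 to 46 in the other libraries of the series, although all are labelled female.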

How the results depend on the processing

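The count of DMRs depended mostly on the thresholds. It was 15172 (8551 higher and 6621 lower) with a minimum difference of 5 points, 352 (216 and 136) with 15 points, and 16 (5 and 11) at an adjusted p under 0.000001. With libraries centred it was 2066 (1400 and 666), and it stayed between 1973 and 1985 under other offsets, no transformation, limma-trend, all 29 libraries or at least 3 values per group. Leaving out 1 library gave 1740 (without Sham-OVA replicate 6) to 2379 (without Sham-OVA replicate 7), with 1074 to 1443 higher and 666 to 936 lower. A replicate block gave 1975 DMRs and changed no named window. Because the replicate numbers are only names here (1 of 7 libraries had its own number as best partner), the block is not taken as a pairing.

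Among class means, the 2500 to under 5000 bp difference was -0.00843 by medians, 0.383 after subtracting the library mean, and -0.0436 to 0.253 without 1 library (negative without Sham-OVA replicate 1). Subtracting the library mean, which gained a call for that class and for exonic and intronic windows (adjusted p = 0.000842 for each, exact permutation), also gave 0.0583 at 60 to under 80% (-0.396 to -0.0512 without 1 library), 0.186 for exonic and -0.210 for intronic windows. The exonic difference was -0.236 to 0.0457 without 1 library (positive without Sham-OVA replicate 5). At 5000 to under 10000 bp it was -0.938 to -0.614. With the replicate block, exact sign-flip p-values were adjusted over the classes. The adjusted values were 0.109 at 5000 to under 10000 bp (-0.793), 0.0625 at 10000 bp or more (-1.56) and 0.0625 at 80% or more (-0.945). The smallest possible sign-flip p before adjustment is 0.0156, so these adjusted values cannot be set directly against it. The cause of these shifts was not tested.

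Of 98 named windows, 0 changed direction, and Epx, Cdc6, Mylk and Pcdh12 fell below 10 points in at least 1 fit. Without counts, the weight of each library's depth on these values is unknown.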
